A study of Homo sapiens with 8 samples.

Results

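A set of 8 genes used as markers of ovarian clear cell carcinoma were followed in RMG1 cells, an established human line of that tumour. The members were listed by symbol: SPP1, FXYD2, TFPI2, AMACR, ARG2, GLRX, NAPSA and GPC3. All 8 were found among the 57736 gene IDs of the count table, and all 8 passed the filter on low counts, among 16657 genes that did. Total RNA was sequenced in 4 groups of 2 libraries. ARID1A-knockout cells (made by CRISPR, CAPH2 wild type) were set against wild-type cells (ARID1A and CAPH2 wild type). CAPH2-knockdown cells (an shRNA to CAPH2, ARID1A wild type) were set against cells with a control shRNA (ARID1A and CAPH2 wild type). ARID1A is a subunit of the SWI/SNF chromatin remodeller, and CAPH2, encoded by NCAPH2, belongs to the chromosome-folding complex condensin II. The labels do not say whether the knockout is 1 clone, nor whether both libraries of a group stem from different cultures. The p-values therefore reflect spread between libraries only, and that spread may be technical.

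Ovarian clear cell carcinoma often arises from endometriosis and frequently carries ARID1A mutations. It is told from serous carcinoma by a set of proteins that are also made in kidney, lung or liver cells. The markers differ in what they do. SPP1 (osteopontin) and TFPI2 (a Kunitz-type inhibitor of serine proteases such as plasmin) are secreted. FXYD2 (the gamma subunit that modulates the sodium pump) and GPC3 (a heparan sulphate proteoglycan tethered to the cell surface) sit at the membrane. GLRX (a cytosolic glutaredoxin), AMACR (a racemase for branched-chain fatty acids), ARG2 (the mitochondrial arginase) and NAPSA (the aspartic protease napsin A) are enzymes inside the cell.

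Library totals lay between 24559547 and 37378691 counts. ARID1A itself was at 6.14 ± 0.739 CPM (counts scaled to the TMM-adjusted library size; mean ± SD, n = 2) in knockout cells and 10.45 ± 2.33 CPM in wild-type cells, a log2 fold change of −0.77 (SE 0.16). NCAPH2 was at 8.86 ± 0.174 CPM in knockdown cells and 24.9 ± 1.24 CPM in shRNA control cells (−1.49, SE 0.10). In knockout cells NCAPH2 was at 22.42 ± 2.05 CPM, against 28.38 ± 2.27 CPM in wild-type cells (−0.34, SE 0.09). The knockout differed from shRNA control cells in NCAPH2 by −0.15 (SE 0.09). Among identity markers, PAX8, a lineage factor of the female tract and kidney, lay between 243.6 and 353.6 CPM in all 8 libraries. Of 4 epithelial genes, the lowest value in any library was 150.7 CPM. In the knockout they differed from wild type in both directions: CDH1 averaged 295.5 CPM in knockout and 151.5 CPM in wild-type cells (log2 fold change 0.96), and EPCAM 892.0 CPM in knockout and 731.9 CPM in wild-type cells (0.29). KRT8 averaged 257.9 CPM in knockout and 419.2 CPM in wild-type cells (−0.70), and KRT18 did not pass (−0.04, adjusted p = 0.604). The serous markers WT1, ESR1 and PGR together reached at most 0.0619 CPM in a library. The 6 fibroblast markers summed to 0.992 and 1.12 CPM in knockout cells, against 0.435 and 0.455 CPM in wild-type cells, with COL1A2 and COL3A1 at 0 throughout and LUM at 0.531 CPM in knockout cells and 0 in all other groups. The 6 leukocyte markers summed to 4.15 and 5.15 CPM in knockout cells and 1.30 and 2.98 CPM in wild-type cells, with CD3E at 0 throughout. Single leukocyte markers went opposite ways: PTPRC averaged 2.12 CPM in knockout and 0.0207 CPM in wild-type cells, and CD14 0.0137 CPM in knockout and 0.403 CPM in wild-type cells. The part of these genes in the results was not tested. Of the 3 endothelial markers with an ID, KDR was at 0 and the sum was at most 0.124 CPM.

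Promoters are shown for SPP1, TFPI2 and GLRX, the members with the lowest knockout-to-wild-type ratios among those with an entry in the RefSeq table. Each runs 5′ to 3′ along the gene's strand, from 250 bases before to 50 bases after the gene start, on GRCh38.p14: chr4:87975464-87975763 (plus strand) for SPP1, chr7:93890704-93891003 (minus strand) for TFPI2 and chr5:95822677-95822976 (minus strand) for GLRX. Capitals mark a match to the motif named after the sequences.
SPP1: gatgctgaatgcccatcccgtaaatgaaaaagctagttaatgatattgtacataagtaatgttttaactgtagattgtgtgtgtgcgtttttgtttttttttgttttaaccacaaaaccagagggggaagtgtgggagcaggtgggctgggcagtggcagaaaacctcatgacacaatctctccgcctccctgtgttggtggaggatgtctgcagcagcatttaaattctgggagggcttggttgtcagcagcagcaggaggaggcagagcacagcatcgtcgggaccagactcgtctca
TFPI2: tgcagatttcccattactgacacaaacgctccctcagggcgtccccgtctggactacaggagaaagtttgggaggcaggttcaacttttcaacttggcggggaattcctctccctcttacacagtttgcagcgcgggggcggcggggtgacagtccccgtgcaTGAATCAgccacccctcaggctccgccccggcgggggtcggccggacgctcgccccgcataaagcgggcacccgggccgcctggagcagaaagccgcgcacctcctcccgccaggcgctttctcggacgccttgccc
GLRX: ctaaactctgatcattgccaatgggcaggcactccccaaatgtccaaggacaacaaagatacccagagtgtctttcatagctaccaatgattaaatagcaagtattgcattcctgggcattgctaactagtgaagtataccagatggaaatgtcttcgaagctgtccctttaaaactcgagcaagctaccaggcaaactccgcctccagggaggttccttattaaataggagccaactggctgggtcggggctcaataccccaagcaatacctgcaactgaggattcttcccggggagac
The motif searched on both strands was TGANTCA, bound by AP-1 factors. TFPI2 held 1 match (TGAATCA), starting 87 bases before the gene start, and the motif was present in 7.71% of 35116 RefSeq windows of this length. The windows of SPP1, AMACR, ARG2, GLRX and NAPSA did not hold these letters. FXYD2 and GPC3 had no entry.

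On a scale corrected for transcript length (CPM per kilobase), SPP1 was the most abundant marker in every group. Its level was 537.5 ± 11.2 CPM per kilobase in knockout cells and 1206 ± 116 in wild-type cells, and 2125 ± 21.0 in knockdown cells and 1549 ± 15.0 in shRNA control cells (mean ± SD, n = 2 each). TFPI2 came second in each group. The lowest levels were those of NAPSA and GPC3. GPC3 stood at 2.68 ± 0.235 CPM per kilobase in knockout cells and 4.83 ± 0.514 in wild-type cells, and at 0.449 ± 0.0166 in knockdown cells and 0.738 ± 0.0685 in shRNA control cells. NAPSA stood at 2.10 ± 0.392 CPM per kilobase in knockout cells and 3.55 ± 0.119 in wild-type cells, and at 2.17 ± 0.224 in knockdown cells and 1.21 ± 0.234 in shRNA control cells. NAPSA was thus the lower of both in knockout and wild-type cells, and GPC3 in both shRNA groups. The markers spanned a wide range of abundance in this line, and both low ones rested on 33 to 341 counts a library.

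**Figure D1:**
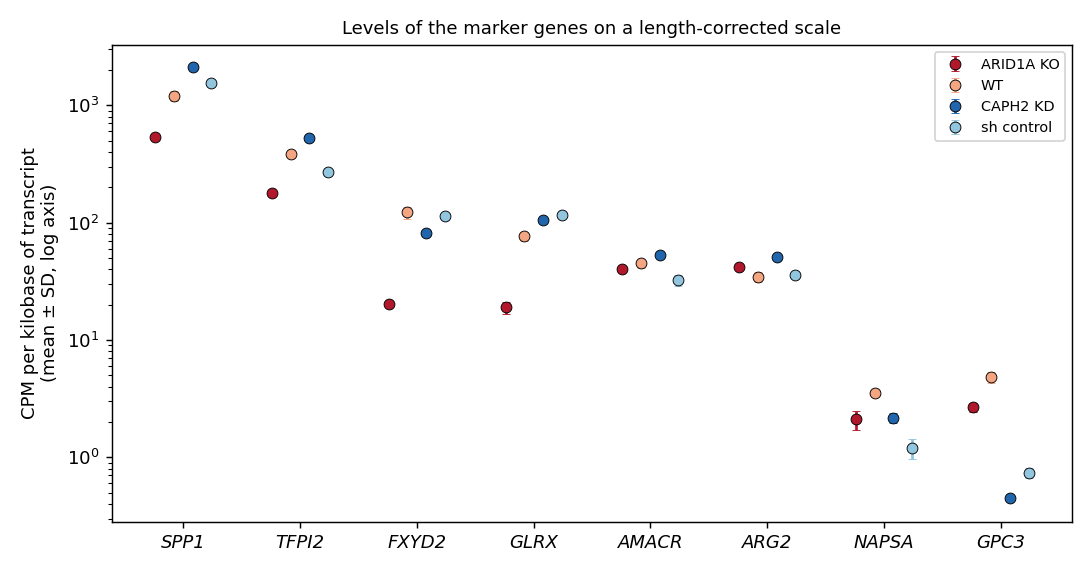
Level of each marker in CPM per kilobase of transcript (log axis), as mean ± SD of 2 libraries in each of the 4 groups, ordered by mean level. SPP1 and TFPI2 lead in every group, and NAPSA and GPC3 are lowest.

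Setting ARID1A-knockout cells against wild-type cells asks how the markers stand once ARID1A is disrupted. Of the 8 markers, 6 were lower in the knockout (FXYD2, GLRX, SPP1, TFPI2, GPC3 and NAPSA), 1 was higher (ARG2) and 1 did not pass the test (AMACR), in edgeR's quasi-likelihood test over all genes with an adjusted p under 0.05. In this comparison 34.5% of all genes tested passed, 17.8% as lower and 16.8% as higher. The median log2 fold change of the 8 members was −0.97, and that of all genes tested was 0.00. In bulk RNA, fewer cells making a transcript and less of it per cell cannot be told apart. The libraries of both groups did not overlap for any of the 8 members, which held for 64.5% of all genes tested.

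Of the secreted markers, SPP1 was at 826.6 and 802.5 CPM in the knockout libraries, against 1952 and 1704 CPM in the wild-type libraries. Its fitted level in the knockout was 44.6% of that in wild type (log2 fold change −1.17, SE 0.06, adjusted p = 5.77e-08). TFPI2 was at 319.6 and 314.1 CPM in knockout libraries and 691.7 and 664.1 CPM in wild-type libraries, 46.7% of the wild-type level (−1.10, SE 0.05, adjusted p = 1.91e-08). Both secreted markers were thus lower in either knockout library than in any other library of the set.

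The membrane markers moved by different amounts. FXYD2 showed the lowest ratio of the set, with 11.57 and 11.15 CPM in knockout libraries against 74.68 and 63.38 CPM in wild-type libraries. Its level was 16.5% of wild type (−2.60, SE 0.09, adjusted p = 2.06e-09). FXYD2 lies on chromosome 11 among neighbours that were also lower: the median over 40 neighbouring tested genes was −0.67, with 90.0% of them below 0, and the value of FXYD2 minus that median was −1.93. GPC3 was at 6.77 and 5.98 CPM in knockout libraries, against 10.62 and 12.35 CPM in wild-type libraries (−0.85, SE 0.16, adjusted p = 0.00132). The neighbour medians of the other 7 members lay between −0.14 (NAPSA) and 0.26 (SPP1), and subtracting them left every sign as it was.

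Among the enzymes, GLRX was at 12.99 and 10.97 CPM in knockout libraries and 51.54 and 45.12 CPM in wild-type libraries, 24.8% of the wild-type level (−2.01, SE 0.09, adjusted p = 3.02e-08). NAPSA, with 103 and 141 counts in the knockout and 136 and 148 in the less deep wild type, was at 2.82 and 3.68 CPM in knockout libraries against 5.62 and 5.36 CPM in wild-type libraries (−0.75, SE 0.21, adjusted p = 0.0161). Its call was lost without knockout library 1 (−0.57) or wild-type library 1 (−0.72), and in DESeq2 (−0.75, adjusted p = 0.0513). ARG2, the arginase that turns arginine into ornithine in mitochondria, went the other way: it was at 82.99 and 86.59 CPM in knockout libraries and 66.04 and 75.76 CPM in wild-type libraries. That rise of 0.26 (SE 0.07, adjusted p = 0.0175) lost its call without knockout library 2 (0.23) or wild-type library 1 (0.16). AMACR, at 51.2 and 54.34 CPM in knockout libraries and 62.2 and 55.77 CPM in wild-type libraries, differed by −0.16 (SE 0.08, adjusted p = 0.164) and did not pass.

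**Figure D2:**
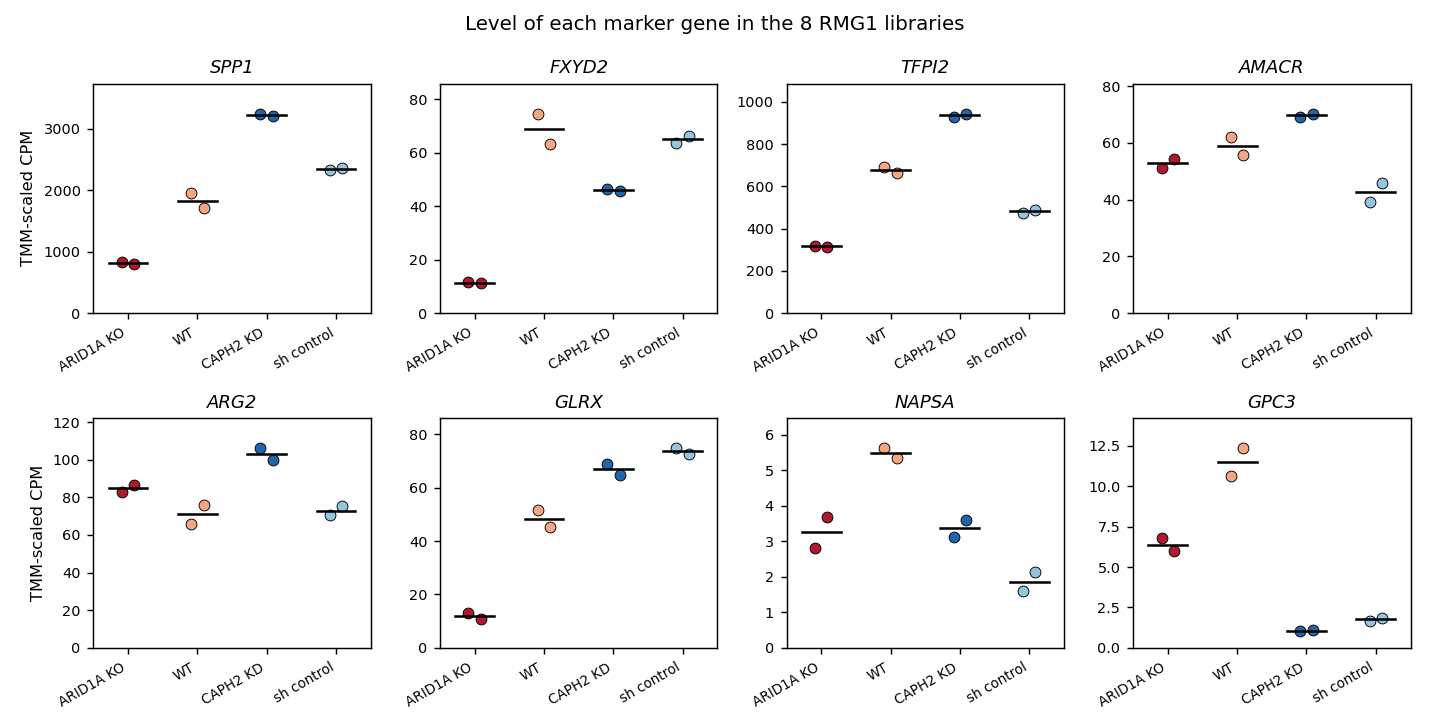
TMM-scaled CPM of each marker in every library (points) with the group mean (bar); axes start at 0 and differ between genes. The knockout points of SPP1, FXYD2, TFPI2 and GLRX lie below those of all other groups, while NAPSA and GPC3 are highest in wild-type cells and lower in both shRNA groups.

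Setting CAPH2-knockdown cells against shRNA control cells asks the same for condensin II. Of the 8 markers, 5 were higher in the knockdown (TFPI2, NAPSA, AMACR, ARG2 and SPP1), 2 were lower (GPC3 and FXYD2) and GLRX did not pass. Among all genes tested, 15.8% passed in this comparison, 7.62% as higher and 8.22% as lower. The median log2 fold change was 0.48 over the members and 0.00 over all genes tested. Libraries of both groups did not overlap for any member, which held for 59.0% of all genes tested.

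TFPI2 had the largest rise, with 928.4 and 944.3 CPM in knockdown libraries against 474.0 and 488.2 CPM in shRNA control libraries (0.96, SE 0.05, adjusted p = 1.79e-07). SPP1 was at 3243 and 3198 CPM in knockdown libraries and 2331 and 2363 CPM in control libraries (0.46, SE 0.06, adjusted p = 0.000253). So the knockdown libraries held the highest levels of both secreted markers in the whole set. FXYD2, at the membrane, fell to 46.31 and 45.69 CPM in knockdown libraries, against 63.73 and 66.35 CPM in control libraries (−0.50, SE 0.08, adjusted p = 0.000950). GPC3 was near the bottom of what was measured, at 1.04 and 1.10 CPM (33 and 34 counts) in knockdown libraries and 1.64 and 1.87 CPM (53 and 67 counts) in control libraries. Its fall of 0.72 on the log2 scale (SE 0.21, adjusted p = 0.0426) failed the threshold in 11 of 17 alternatives, with adjusted p up to 0.209. These were no filter, DESeq2, limma-voom, a fit of the 4 libraries alone, the replicate block, and leaving out either knockdown, either control or either knockout library.

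AMACR, which turns branched-chain acyl-CoAs into the form that peroxisomes can oxidise, was at 69.11 and 70.3 CPM in knockdown libraries against 39.12 and 45.91 CPM in control libraries (0.71, SE 0.08, adjusted p = 0.000121). ARG2 was at 106.1 and 100.1 CPM in knockdown libraries and 70.5 and 75.34 CPM in control libraries (0.50, SE 0.07, adjusted p = 0.000593). NAPSA was at 3.12 and 3.61 CPM in knockdown libraries and 1.61 and 2.12 CPM in control libraries, with 99 and 112 counts in the knockdown and 52 and 76 in the control (0.85, SE 0.22, adjusted p = 0.0255). All 3 enzymes were thus higher in both knockdown libraries than in either control. The NAPSA call was lost without knockdown library 1 (0.94), knockdown library 2 (0.74) or control library 1 (0.66), and in DESeq2 (0.85, adjusted p = 0.0520). GLRX was at 69.04 and 64.88 CPM in knockdown libraries and 74.74 and 72.46 CPM in control libraries (−0.14, SE 0.08, adjusted p = 0.313).

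The difference between both effects (knockout effect minus knockdown effect) was tested in the same fit. It passed for 6 of the 8 markers, all with a lower effect in the knockout, while 26.3% of all genes tested passed, 14.0% as lower and 12.3% as higher. The differences were −2.10 (SE 0.12) for FXYD2, −2.06 (SE 0.07) for TFPI2, −1.88 (SE 0.12) for GLRX, −1.62 (SE 0.08) for SPP1, −1.60 (SE 0.31) for NAPSA and −0.87 (SE 0.12) for AMACR, with edgeR adjusted p from 3.14e-09 to 0.00245. TFPI2, SPP1 and NAPSA were lower in one perturbation and higher in the other, each against its own control. For NAPSA, knockout (3.25 CPM) and knockdown cells (3.37 CPM) did not differ beyond their spread (−0.05, edgeR adjusted p = 0.880). The shRNA control lay below wild type in NAPSA (−1.55, SE 0.22), so its difference of effects rests on the unperturbed groups. For AMACR the control also lay below wild type (−0.47, SE 0.08), and knockout minus knockdown was −0.40 (SE 0.08). ARG2 differed by −0.24 (SE 0.10, adjusted p = 0.109), which passed without wild-type library 1 (−0.34, adjusted p = 0.0101). GPC3 differed by −0.13 (SE 0.27, adjusted p = 0.769).

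The 2 groups without a targeted perturbation were not alike in these markers. Between shRNA control and wild-type cells, 6 of the 8 markers passed, 2 as higher and 4 as lower, against 19.2% of all genes tested (9.13% higher, 10.1% lower). The libraries did not overlap for 6 markers and for 57.5% of all genes tested. GPC3 averaged 1.76 ± 0.163 CPM with the control shRNA and 11.5 ± 1.22 CPM in wild type (mean ± SD, n = 2 each), 15.3% of the wild-type level (−2.71, SE 0.18, adjusted p = 3.55e-06). NAPSA averaged 1.87 ± 0.363 CPM with the control shRNA and 5.49 ± 0.184 CPM in wild type (−1.55, SE 0.22, adjusted p = 0.000711). TFPI2 (−0.49, SE 0.05) and AMACR (−0.47, SE 0.08) were also lower in the controls, and GLRX (0.61, SE 0.08) and SPP1 (0.36, SE 0.06) were higher. FXYD2 (−0.08, SE 0.08) and ARG2 (0.04, SE 0.07) did not pass, and their libraries overlapped. For GPC3 and NAPSA this difference between unperturbed groups was larger in size than the fold change of either perturbation against its own control.

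Set against the shRNA control in place of wild type, the knockout was therefore lower in 4 markers and higher in 4, with 41.8% of all genes tested passing (20.9% in each direction). FXYD2 (−2.52, SE 0.09), GLRX (−2.62, SE 0.09), SPP1 (−1.53, SE 0.06) and TFPI2 (−0.60, SE 0.05) were lower against either group. ARG2 was higher against either group (0.22, SE 0.07 against the control). GPC3 was higher in knockout than in shRNA control cells (1.86, SE 0.18, adjusted p = 8.01e-06), as were NAPSA (0.80, SE 0.22, adjusted p = 0.0135) and AMACR (0.31, SE 0.08, adjusted p = 0.0104). Both comparisons use the same knockout libraries. Carrying an shRNA and any other difference between these groups cannot be told apart.

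**Figure D3:**
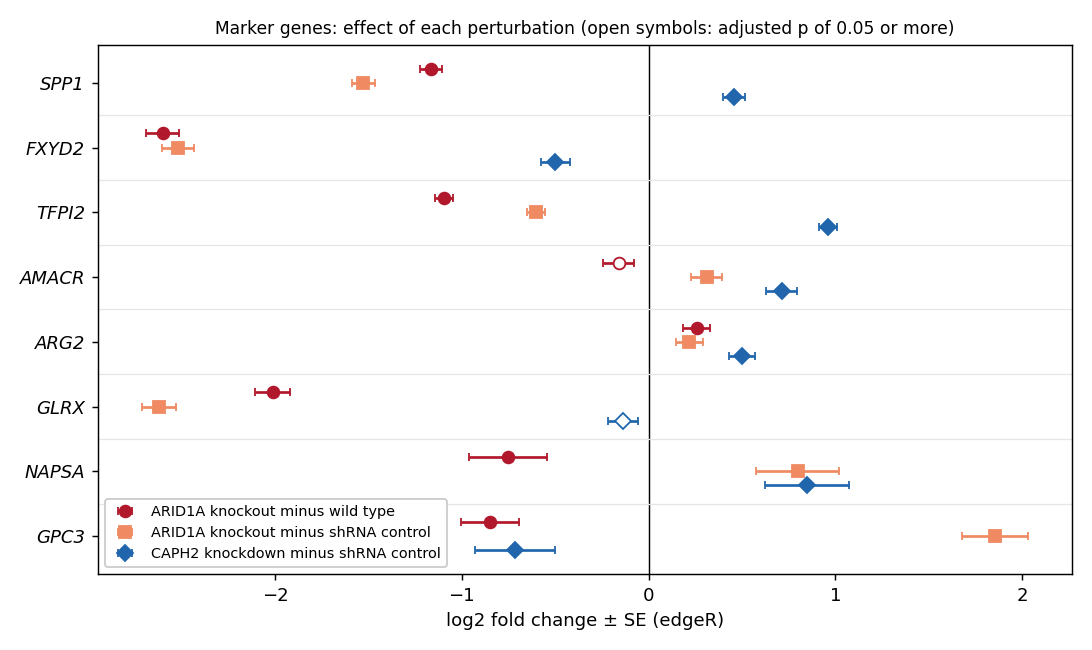
Log2 fold change with its SE for each marker in the knockout against wild type (circles), the knockout against shRNA control (squares) and the knockdown against shRNA control (diamonds); filled symbols passed an adjusted p under 0.05. FXYD2, GLRX, SPP1 and TFPI2 lie left of 0 for the knockout against either group, while AMACR, NAPSA and GPC3 change side.

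Placed in order of level, SPP1 ran from knockdown through shRNA control and wild type to knockout, and each step passed the test. TFPI2 ran from knockdown through wild type and shRNA control to knockout, again with every step passing. GPC3 ran from wild type through knockout and shRNA control to knockdown, and its last step carries the limits given above. For FXYD2 the top pair, wild type and shRNA control, did not differ beyond their spread. For ARG2 the lowest pair, shRNA control and wild type, did not. GLRX had shRNA control and knockdown at the top without a passing difference, AMACR had wild type next to knockout (adjusted p = 0.164), and NAPSA had knockdown next to knockout (0.05 on the log2 scale, adjusted p = 0.8802). Among all genes tested, 30.3% passed between knockdown and wild type and 43.3% between knockout and knockdown. Knockout cells held the lowest level of SPP1, FXYD2, TFPI2 and GLRX, and of no other member.

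Partner genes of the markers were taken from lists by role, 93 genes in all, of which 92 had an ID and 74 were tested. In the knockout 16 rose and 33 fell, 66.2% of those tested, against 34.5% of all genes tested and 44.8% of those with a mean of at least 5 CPM. The partners were not held to that limit, and some lay below it. In the knockdown 21 rose and 14 fell, 47.3%, against 15.8% of all genes tested and 23.0% of those with a mean of at least 5 CPM. The median log2 fold change of the partners was −0.17 in the knockout and 0.02 in the knockdown. Each perturbation was set against its own control only, and the unperturbed groups were not exchanged for the partners.

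Of 7 osteopontin receptors tested, 1 rose and 3 fell in the knockout. ITGB1, the common beta chain of integrins, rose (0.20, SE 0.04), while ITGA5 (−1.06, SE 0.07) and ITGB3, the partner of ITGAV in an osteopontin receptor, fell (−0.71, SE 0.06), as did CD44 (−0.18, SE 0.05). In the knockdown 2 rose, ITGB5 (0.93, SE 0.18) and ITGAV (0.29, SE 0.06), and 2 fell, ITGB3 (−1.05, SE 0.06) and the hyaluronan receptor CD44 (−0.54, SE 0.05). ITGB3 was thus lower in both perturbations, at 263.3 CPM in knockout and 430.7 CPM in wild-type cells, and at 235.3 CPM in knockdown and 486.8 CPM in control cells.

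Of 6 sodium pump and FXYD genes, 1 rose and 4 fell in the knockout. FXYD6 (−2.04, SE 0.31) and FXYD3 (−2.01, SE 0.17), relatives of FXYD2, fell, as did FXYD5 (−0.55, SE 0.11). FXYD6 is joined to FXYD2 in the readthrough gene FXYD6-FXYD2, so it lies in the same stretch of lower neighbours. Whether the falls of FXYD6 and FXYD2 are separate was not tested. Levels were low: FXYD6 averaged 0.533 CPM in knockout and 2.21 CPM in wild-type cells, and FXYD3 1.23 CPM in knockout and 4.96 CPM in wild-type cells. ATP1B1, the beta subunit, rose to 74.89 CPM in knockout cells, against 35.65 CPM in wild-type cells (1.07, SE 0.06). In the knockdown 1 rose, FXYD3 (0.65, SE 0.12), and 1 fell. FXYD3 averaged 21.29 CPM in knockdown and 13.58 CPM in shRNA control cells, and the control lay above wild type (1.45, SE 0.13).

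All 5 Kunitz-type inhibitor genes passed in the knockout. TFPI, the tissue factor pathway inhibitor, rose (0.62, SE 0.05), opposite to TFPI2, and fell in the knockdown (−0.25, SE 0.05), again opposite to TFPI2. APP rose in the knockout (0.23, SE 0.06) and fell in the knockdown (−0.46, SE 0.06), while APLP2 (−0.57, SE 0.05) and SPINT1 (−0.53, SE 0.08) fell in the knockout. APP averaged 695.9 CPM in knockout cells, between 592.0 CPM in wild-type and 765.8 CPM in shRNA control cells. Both TFPI (0.49, SE 0.05) and APP (0.37, SE 0.06) were higher in shRNA control than in wild-type cells. TFPI averaged 174.4 CPM in knockdown cells, between 147.4 CPM in wild-type and 207.2 CPM in shRNA control cells. SPINT2 fell in the knockout (−0.36, SE 0.05) and rose in the knockdown (0.23, SE 0.05).

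Enzymes around AMACR in peroxisomes passed more often in the knockdown, where AMACR itself was higher: 5 of 10 tested rose and 1 fell, against 3 and 2 in the knockout, a difference that was not tested. ALDH3A2, a fatty aldehyde dehydrogenase, rose in the knockdown (2.36, SE 0.24), as did SCP2, a peroxisomal thiolase and sterol carrier (0.41, SE 0.06), and HSD17B4, the bifunctional enzyme of peroxisomal oxidation (0.33, SE 0.06). ALDH3A2 was low, at 5.68 CPM in knockdown and 1.10 CPM in shRNA control cells, with wild-type cells at 2.44 CPM. SCP2 was also lower in shRNA control than in wild-type cells (−0.28, SE 0.06). PHYH, which starts the breakdown of phytanic acid, fell in both the knockdown (−0.96, SE 0.08) and the knockout (−1.11, SE 0.08). PHYH averaged 51.96 CPM in knockdown and 100.8 CPM in shRNA control cells, with wild-type cells at 52.94 CPM. HACL1, the lyase after PHYH, rose in the knockdown (0.33, SE 0.09) and in the knockout (0.53, SE 0.09). In the knockout ACOX3 rose too (0.40, SE 0.12).

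Among 9 genes of arginine, ornithine and polyamine metabolism, 7 fell and 0 rose in the knockout, where ARG2 was higher. ASS1, which makes the precursor of arginine, fell to 10.67 CPM in knockout cells, against 24.32 CPM in wild-type cells (−1.19, SE 0.13), and SLC7A1, a carrier of cationic amino acids, fell as well (−0.65, SE 0.08). Of the 9 genes, 0 were higher in the knockout at an unadjusted edgeR p under 0.05, and 0 by DESeq2 or limma-voom. In the knockdown 3 rose and 0 fell: ASS1 (0.95, SE 0.11), OAT, the ornithine aminotransferase (0.43, SE 0.07), and ODC1, the first enzyme of polyamine synthesis (0.34, SE 0.05). In the lower direction 1 gene had an unadjusted edgeR p under 0.05, and DESeq2 and limma-voom called 0. ODC1 averaged 181.2 CPM in knockdown and 143.2 CPM in shRNA control cells, with 190.4 CPM in wild-type and 172.1 CPM in knockout cells.

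Thiol redox genes related to GLRX went both ways. In the knockout 4 of 11 rose and 3 fell, led by TXNRD1, thioredoxin reductase (0.71, SE 0.05), and GLRX2, the mitochondrial glutaredoxin (0.44, SE 0.13), against GLRX3 (−1.07, SE 0.06) and GLRX5 (−0.33, SE 0.09). In the knockdown 3 rose and 2 fell. GSS (0.42, SE 0.08) and GCLC (0.36, SE 0.07) of glutathione synthesis rose, while GCLM (−0.31, SE 0.08) and GLRX3 (−0.22, SE 0.06) fell. GCLC averaged 49.41 CPM in knockdown and 38.61 CPM in shRNA control cells, with wild-type cells at 53.65 CPM. GCLM (−0.77, SE 0.07) and GLRX3 (−0.34, SE 0.06) were also lower in shRNA control than in wild-type cells.

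Of 4 aspartic proteases tested, CTSD, the lysosomal cathepsin D, fell in the knockout (−0.55, SE 0.10), and none of the 4 passed in the knockdown (edgeR adjusted p from 0.466 to 0.974). Their unadjusted p lay between 0.236 and 0.938, and DESeq2 and limma-voom also called 0. Of 6 glypican and syndecan genes, GPC4 rose in the knockout (0.43, SE 0.14), and SDC1 (−0.37, SE 0.05) and SDC4 (−0.29, SE 0.05) fell. In the knockdown SDC4 rose (0.35, SE 0.05), and SDC3 (−0.87, SE 0.09) and SDC1 (−0.29, SE 0.05) fell. SDC3 averaged 13.51 CPM in knockdown and 24.7 CPM in shRNA control cells, with wild-type cells at 14.73 CPM.

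Of 16 other genes tested that have been reported in this tumour type, 4 rose and 8 fell in the knockout, and 5 rose and 4 fell in the knockdown. The cadherin gene CDH6 was at 5.61 CPM in knockout and 257.8 CPM in wild-type cells (−5.52, SE 0.07). FOLR1, a folate receptor, fell as well (−1.46, SE 0.13). IGF2BP3, an RNA-binding protein (0.90, SE 0.09), and the receptor tyrosine kinase gene MET (0.62, SE 0.05) rose. In the knockdown the cytokine gene IL6 was at 22.86 CPM, against 94.92 CPM in control cells (−2.05, SE 0.08), and CDH6 fell too (−1.02, SE 0.06). CDH6 averaged 44.26 CPM in knockdown and 89.95 CPM in shRNA control cells, and the control lay below wild type (−1.52, SE 0.05). FOLR1 (0.64, SE 0.12) and STAT3 (0.63, SE 0.05) rose in the knockdown.

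Some calls on the partner genes named above were lost when 1 library was left out. In the knockout, ITGB1 and APP lost theirs without knockout library 2, CD44 without either knockout library, and GLRX5 without either knockout library or wild-type library 1. ACOX3 lost its call without knockout library 2 or either wild-type library, GLRX2 without knockout library 2 or wild-type library 2, and GPC4 without either knockout library or wild-type library 1 (adjusted p up to 0.186 over these 7 genes). In the knockdown, TFPI and GLRX3 lost theirs without any 1 of the 4 libraries compared, SPINT2 and GCLC without knockdown library 1 or control library 2, ITGAV without knockdown library 2 or either control, GCLM without knockdown library 1 or either control, and HACL1 without either knockdown library or control library 1 (adjusted p up to 0.247 over these 7).

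**Figure D4:**
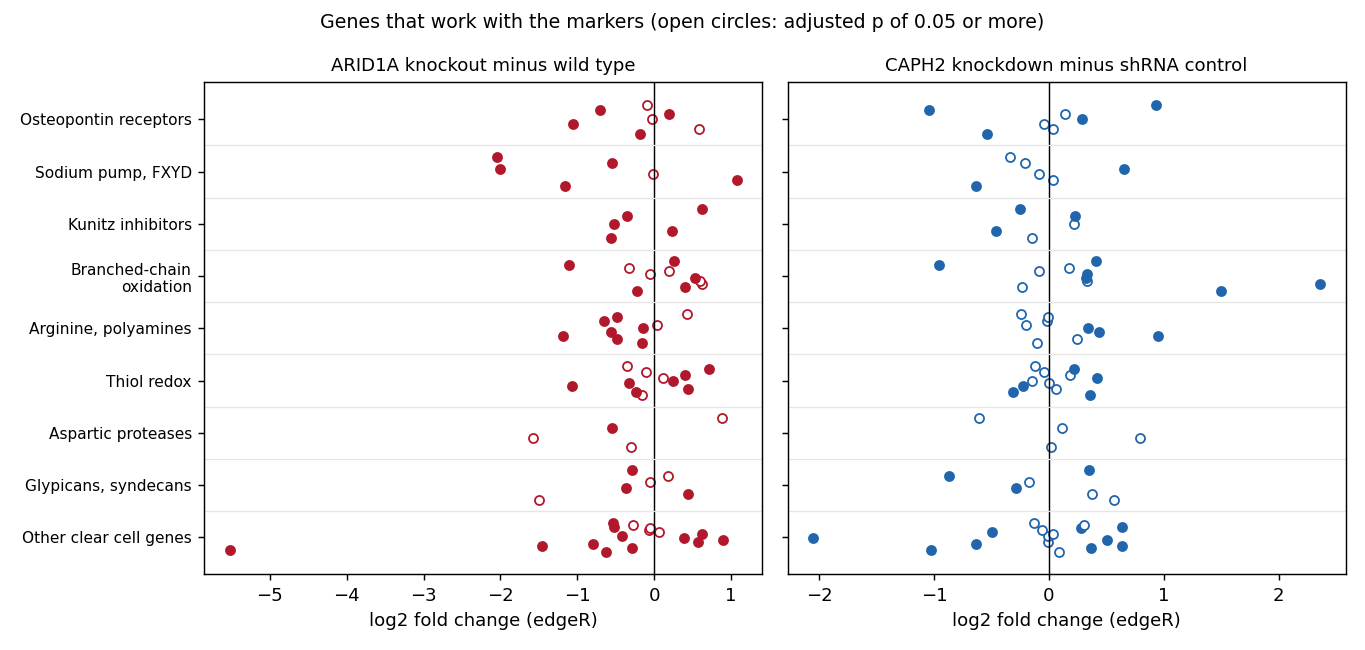
Log2 fold changes of the 74 partner genes tested, by list, in the knockout against wild type (left) and the knockdown against shRNA control (right); each circle is 1 gene, filled where it passed, and the horizontal scales differ. The sodium pump and arginine lists lie mostly left of 0 in the knockout, and CDH6 is the point near −5.5.

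Genes with the most similar pattern were taken as the 2 with the highest Pearson correlation of log2 CPM over the 8 libraries, among 2552 genes with a mean of at least 5 CPM and an SD of at least 0.3. The libraries form 4 groups of 2, so these coefficients describe group patterns. SPP1 was followed most closely by SERPINA1, the antitrypsin gene (r = 0.996), which was at 1.94 CPM in knockout and 18.3 CPM in wild-type cells, and at 115.6 CPM in knockdown and 35.3 CPM in control cells. APOL2 came next (r = 0.996). FXYD2 was matched by ASRGL1 (r = 0.998) and HSD17B2, a steroid dehydrogenase (r = 0.998), the second at 16.45 CPM in knockout and 131.2 CPM in wild-type cells. GLRX was matched by MTUS1 and EPB41L5 (r = 0.998 and 0.996), TFPI2 by NPAT and FUCA1 (0.997 and 0.994), and GPC3 by FMN1 and AEN (0.997 and 0.995). The closest genes were less close for AMACR (UBXN8, 0.973, and LACTB2, 0.940), ARG2 (GPRC5A, 0.973, and SLC50A1, 0.954) and NAPSA (MCTP2, 0.941, and RASGRF2, 0.912).

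Some members share transcribed sequence with other genes, and the strand setting of the counting is not given in the sources used here. ARG2 overlaps VTI1B on the opposite strand, which was at 113.1 CPM in knockout and 119.6 CPM in wild-type cells, and at 115.5 CPM in knockdown and 127.7 CPM in control cells, so reads of the overlap could be assigned to either. TFPI2 overlaps its divergent transcript TFPI2-DT, at 2.04 CPM in knockout and 5.06 CPM in wild-type cells, and at 4.67 CPM in knockdown and 3.66 CPM in control cells. The readthrough transcript C1QTNF3-AMACR stayed at or below 1.22 CPM in the group means, FXYD6-FXYD2 was at 0 in all groups, and NAPSB, a pseudogene relative of NAPSA, was at 0.124 to 1.04 CPM in single libraries.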

How the data were processed

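The deposited values are expected counts, with a row per Ensembl gene ID and a column per library (8 libraries, none pooled). Trizol extraction, a DNase step and Illumina's TruSeq Total RNA kit are named per the labels' protocols. Per the submitters' processing notes, Bowtie2 and RSEM 1.2.12 were used with hg19. The deposited expected counts were already whole, so rounding changed none. RSEM shares reads between similar genes, which makes single values of near copies uncertain. Gene symbols were looked up by ID, and GENCODE 29 also gave chromosomes, gene order and transcript length on GRCh38; hg19 coordinates are not used here.

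The main test was that of edgeR 4.0.16 under R 4.3.3 (filterByExpr, TMM, quasi-likelihood F-test, group means, all 8 libraries, Benjamini-Hochberg over 16657 genes, threshold 0.05). SE is the log2 fold change over the square root of F. Residual degrees of freedom were 4, and the common BCV (biological coefficient of variation) was 7.74%. Alternatives used DESeq2 1.42.0 and limma 3.58.1. Length correction used the median length of a gene's coding transcripts. Replicate numbers did not pair the libraries: deviations of same-numbered libraries correlated between −0.0239 and 0.0296. Partners were named by a rule: per list, comparison and direction, at most 2 genes with the largest change and a mean of at least 1 CPM; others were chosen after their values were seen. The members and lists were chosen with earlier results of these data known. Some genes of the lists are counted but not reported by name here.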

Additional observations from a re-analysis of the deposited data

How the results depend on the processing

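The number of markers that passed stayed within 1.5 times of that reported in all 4 comparisons under each alternative (other scalings, filters and tools, a fit of the compared groups alone, the replicate block, each library left out): 5 to 8 markers for the knockout, 5 to 8 for the knockdown, 6 to 7 for the difference of effects and 6 for shRNA control against wild type. With the replicate block 7, 6, 6 and 6 markers passed, and GPC3 in the knockdown did not (adjusted p = 0.0569); same-numbered libraries did not deviate together. Leaving out 1 library gave 36 to 48 partner genes in the knockout (49 reported) and 28 to 43 in the knockdown (35 reported). Directions turned where the unperturbed group was exchanged: against shRNA control the knockout gave 0.31 for AMACR, 0.80 for NAPSA and 1.86 for GPC3, and against wild type the knockdown gave 0.47 for GLRX and −0.70 for NAPSA; the cause was not tested. Other scalings moved the median of all genes by at most 0.0229. Depth limits GPC3 in the shRNA groups (33 to 67 counts) and NAPSA (52 to 148 counts) the most, and these counts carry counting error in addition to the spread between libraries.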
